A study of Rattus norvegicus with 9 samples.

Results

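The receptors through which noradrenaline, acetylcholine and the neuropeptide PACAP act on heart muscle cells were followed here at the transcript level, together with an orphan cardiac receptor and the enzymes that make cyclic AMP. The set holds 9 genes, taken by their symbols from the deposited gene tables out of 14607 genes listed in at least 1 library. They are the α1-adrenergic receptors Adra1a, Adra1b and Adra1d, the β1-adrenergic receptor Adrb1, the M2 muscarinic receptor Chrm2, the orphan receptor Gpr22, the PACAP receptor Adcyap1r1 and the adenylyl cyclases Adcy5 and Adcy6. The genes were picked with their levels in all 3 groups in view, so every difference between groups is a description for them. No p-value is given for a single member, and nothing is read from counts of members called.

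The cells were primary cardiomyocytes from the hearts of Sprague-Dawley rats 1 to 2 days old, infected with a lentivirus for 16 h and kept for another 48 h in medium with serum. 3 libraries carried lenti-TCF7L2, a vector for TCF7L2 that the sample titles name lenti-TCF7L2 WT. 3 libraries carried lenti-shTCF7L2, a vector with a short hairpin RNA against TCF7L2, and 3 carried the control vector lenti-NC. TCF7L2 is a transcription factor of the Wnt pathway, to which β-catenin binds in the nucleus. No group was left without virus, and nothing in the labels says whether the 3 libraries of a group came from separate cultures, so the spread between them may be technical. The hearts' fibroblasts, endothelial cells and other cells can remain in such a culture.

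Noradrenaline and adrenaline raise heart rate and force mainly through β1 receptors, which couple to the stimulatory G protein Gs and so to adenylyl cyclase, whose product cyclic AMP activates protein kinase A. Acetylcholine from the vagus nerve acts in the opposite sense through M2 receptors, which couple to the inhibitory G protein Gi and, through its βγ subunits, open the potassium channel built from Kcnj3 and Kcnj5. The α1 receptors couple to Gq and phospholipase C and are known for growth and contractile effects in cardiomyocytes. Adcy5 and Adcy6 are the main adenylyl cyclases of heart muscle, both inhibited by calcium and by Gi. Adcyap1r1 couples to Gs, and Gpr22 is an orphan receptor abundant in heart and brain for which coupling to Gi has been described.

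TCF7L2 binds DNA, so the stretches before the start sites of 4 of the genes are shown. Gpr22 had the largest difference of the set in lenti-TCF7L2, Chrm2 and Adrb1 stand for the autonomic receptors that were lower there, and Adcyap1r1 was the single gene that was higher. Each stretch runs from 250 bases before to 50 bases after the annotated start in RefSeq's GRCr8 assembly and is written 5′ to 3′ on the gene's own strand. The tables hold promoters for 7 of the 9 genes. Capitals mark TATAAA in Gpr22 and TGACG in Adrb1.
Gpr22, chr6:54044936-54045235, minus strand: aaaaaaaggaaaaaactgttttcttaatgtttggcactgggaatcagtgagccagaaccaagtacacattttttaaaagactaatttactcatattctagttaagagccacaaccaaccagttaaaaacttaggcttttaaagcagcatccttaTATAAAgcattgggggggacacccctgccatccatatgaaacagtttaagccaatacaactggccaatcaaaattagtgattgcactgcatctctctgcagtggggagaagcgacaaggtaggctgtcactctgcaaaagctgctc
Chrm2, chr4:65982200-65982499, plus strand: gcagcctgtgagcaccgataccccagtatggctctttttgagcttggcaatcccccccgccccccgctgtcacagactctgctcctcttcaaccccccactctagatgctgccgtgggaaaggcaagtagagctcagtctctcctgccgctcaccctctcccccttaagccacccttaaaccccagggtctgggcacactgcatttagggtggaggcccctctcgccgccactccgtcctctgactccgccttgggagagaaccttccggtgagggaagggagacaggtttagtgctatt
Adrb1, chr1:265776853-265777152, plus strand: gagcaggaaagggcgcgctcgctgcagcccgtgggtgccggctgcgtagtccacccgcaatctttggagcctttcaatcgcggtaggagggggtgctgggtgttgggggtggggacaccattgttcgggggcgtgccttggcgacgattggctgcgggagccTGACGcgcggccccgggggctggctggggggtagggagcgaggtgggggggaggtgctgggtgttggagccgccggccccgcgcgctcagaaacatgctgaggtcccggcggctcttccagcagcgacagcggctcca
Adcyap1r1, chr4:85923921-85924220, plus strand: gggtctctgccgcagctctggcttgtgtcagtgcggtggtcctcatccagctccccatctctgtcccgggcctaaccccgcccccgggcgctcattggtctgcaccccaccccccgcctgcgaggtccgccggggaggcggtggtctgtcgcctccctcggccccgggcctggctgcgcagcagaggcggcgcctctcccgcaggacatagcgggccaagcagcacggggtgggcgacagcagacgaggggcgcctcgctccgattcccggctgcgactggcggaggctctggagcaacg

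The Gpr22 promoter was poor in G and C, at 40.3%, and held 1 CpG, while the Adcyap1r1 promoter had 73% G and C and 29 CpGs. The median over 33469 promoters of the same length was 51.7% G and C and 7 CpGs. The Chrm2 promoter lay at 60.3% with 10 CpGs and the Adrb1 promoter at 70.7% with 28 CpGs. The other 3 promoters found, those of Adra1b, Adra1d and Adcy5, had 72%, 65.7% and 70.7% G and C.

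A search of both strands for CTTTGAT or CTTTGAA, the letters usually given for a TCF/LEF motif, found them in 0 of the 7 promoters and in 8.73% of all promoters. The cyclic AMP response element TGACGTCA was in 0 of 7 and in 1.83% of all. The shorter core TGACG, which lies within the full element, was found at 88 bases before the start of Adrb1 (position -88) and in 21.2% of all promoters. TATAAA was found at position -96 of Gpr22 and in 14.2% of all promoters. CATTCC, an M-CAT core, and AGATAA or TGATAA, letters bound by GATA factors, were in 0 of 7 against 14.2% and 18.9% of all promoters. These matches describe letters in 300 bases and say nothing about binding there or elsewhere.

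The libraries held between 15085922 and 16478295 expected counts, estimates of reads per gene that need not be whole. Levels are given as CPM, counts divided by a library's total that edgeR's TMM factors had adjusted, and as the deposited FPKM, which also divides by transcript length, wherever genes are set beside each other. 3 counts, taken as the lower limit of what is measurable, came to 0.179 to 0.202 CPM. Tcf7l2 reached 142, 206 and 85.7 CPM in lenti-TCF7L2, 25.6, 30.3 and 25.9 CPM in lenti-shTCF7L2 and 40.0, 36.4 and 34.1 CPM in lenti-NC. It rose in lenti-TCF7L2 against lenti-NC, with a log2 difference of 1.97 (SE 0.27, adjusted p = 8.46e-04, edgeR quasi-likelihood test). The hairpin difference was -0.43 (SE 0.27, adjusted p = 0.511), and without lenti-TCF7L2 replicate 3 its adjusted p was 0.0285. Tcf7l2 counts were not split into transcripts of the vector and of the cells' own gene, and the labels do not give the insert's species.

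1 library stood apart. In lenti-TCF7L2 replicate 3, genes longer than 8000 bases lay at a median of -0.98 on the log2 scale against the lenti-NC mean and genes of up to 1000 bases at 0.49, while the same medians were -0.33 and 0.14 in replicate 1 and -0.01 and -0.07 in replicate 2. The members' lengths ran from 1401 bases for Adrb1 to 6218 bases for Adcyap1r1. Several members' differences are also given without that library or adjusted for gene length. The fit took 1 estimate of spread per gene from all 9 libraries. The SE of every hairpin difference therefore includes the spread of the lenti-TCF7L2 libraries.

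The markers of cell types differed between the groups too. Of 15 cardiomyocyte markers, 13 were listed and tested. Against lenti-NC, 11 of them fell in lenti-TCF7L2, and their median log2 difference was -0.98. Their summed level was 22814 to 27246 CPM in lenti-TCF7L2, 46908 to 48898 CPM in lenti-shTCF7L2 and 50230 to 52784 CPM in lenti-NC. Defining cardiomyocyte markers were present in every group and none was at 0 in all libraries of a group. Of 10 endothelial markers, 9 rose in lenti-TCF7L2, and their sum was 176 to 251 CPM there, 90.4 to 91.6 CPM in lenti-shTCF7L2 and 87.7 to 110 CPM in lenti-NC. Of 8 fibroblast markers 4 rose and 1 fell in lenti-TCF7L2, with sums of 37162 to 44621 CPM there, 37456 to 39463 CPM in lenti-shTCF7L2 and 34389 to 35539 CPM in lenti-NC. Col1a1 carried most of these sums, at means of 22161, 23421 and 18266 CPM in the same order of groups. Of the other lists, 4 of 7 macrophage, 2 of 8 smooth muscle and pericyte, 1 of 5 neural and Schwann and 2 of 5 epicardial markers rose in lenti-TCF7L2, and 1 epicardial marker fell. With the hairpin 3 fibroblast markers fell and 0 rose, with a median log2 difference of -0.46 over that list, and 2 macrophage markers rose. The summed erythroid markers stayed at or under 1.01 CPM in every library. In such bulk libraries, fewer cells of a type and less RNA per cell cannot be told apart.

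With TCF7L2 overexpressed, 7 of the 9 genes were lower in every lenti-TCF7L2 library than in any lenti-NC library, 1 was higher, and Adra1b overlapped. Of all 11761 genes tested, 46.8% had groups that did not overlap, 22% with lower and 24.9% with higher levels. All 9 genes passed the filter on low counts. In the fit across all genes 6 members lay lower and 1 higher at an adjusted p under 0.05, where 13.8% of all tested genes were called lower and 18% higher. The members were chosen on this contrast, so nothing is read from these counts. The members' median log2 difference was -0.75, against 0.03 over all genes tested.

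**Figure D1:**
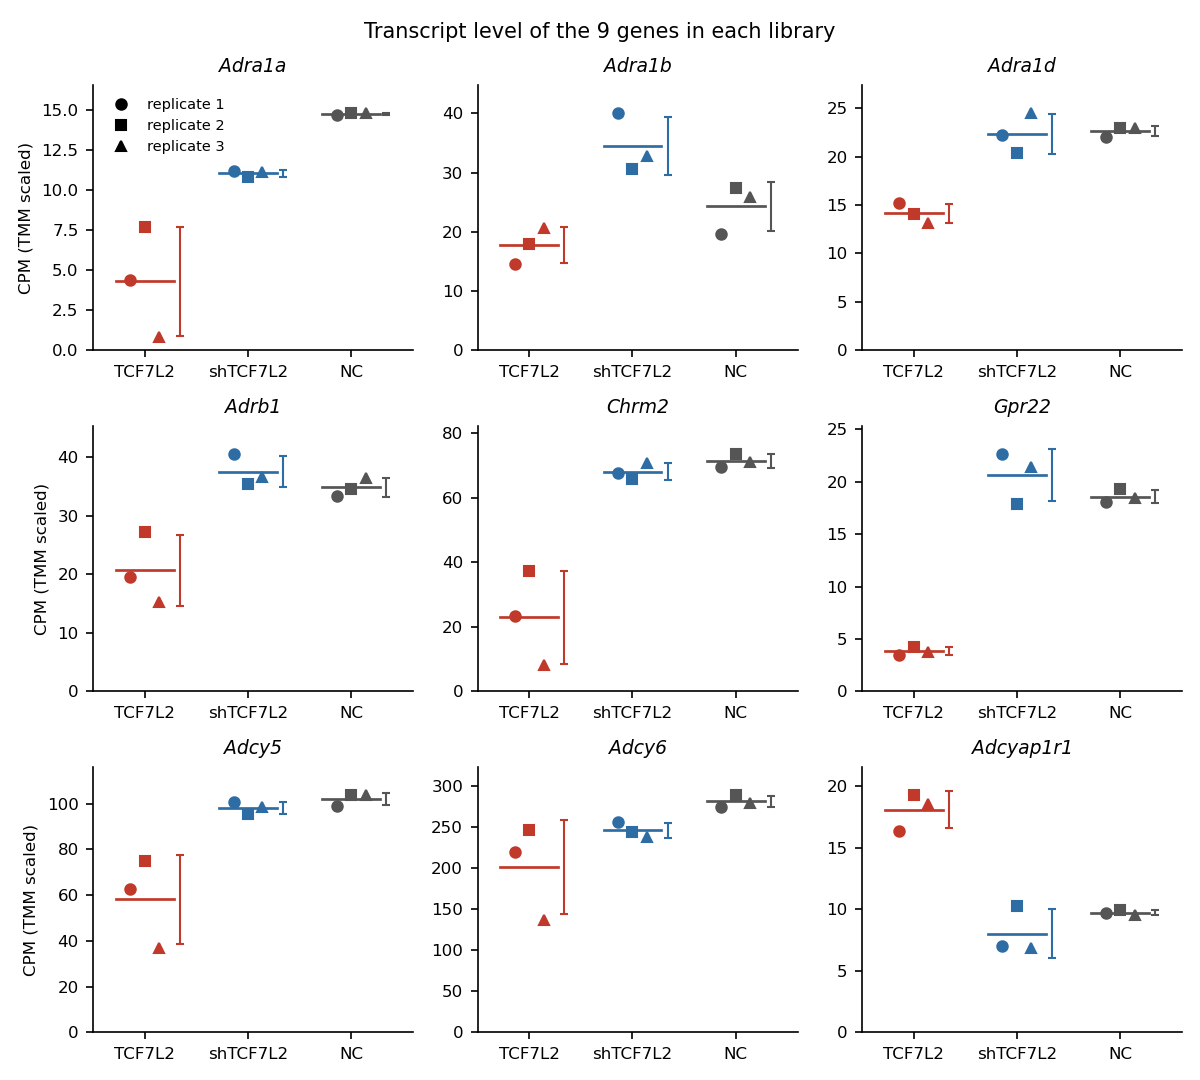
Transcript level of each gene in CPM (vertical axis, from 0) in the lenti-TCF7L2, lenti-shTCF7L2 and lenti-NC libraries; symbols mark replicates, horizontal lines the group mean and bars the SD of 3 libraries. Gpr22 lay at 3.47 to 4.26 CPM in lenti-TCF7L2, below 17.86 to 22.64 CPM in lenti-shTCF7L2 and 18.03 to 19.27 CPM in lenti-NC, while Adra1a and Chrm2 were spread widely among the lenti-TCF7L2 libraries.

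Among the α1 receptors, Adra1a showed the widest spread. It had 4.41, 7.69 and 0.84 CPM in lenti-TCF7L2, 11.22, 10.82 and 11.15 CPM in lenti-shTCF7L2 and 14.73, 14.82 and 14.84 CPM in lenti-NC. The 3 groups did not overlap, with lenti-NC the highest and lenti-TCF7L2 the lowest, and replicate 3 of lenti-TCF7L2 rested on 14 counts against 219 to 222 counts in lenti-NC. The log2 difference of lenti-TCF7L2 from lenti-NC was -1.79 (SE 0.50), -1.31 without lenti-TCF7L2 replicate 3 and -1.86 after adjustment for gene length. The hairpin difference was -0.42 (SE 0.46), a standard error that includes the spread of the lenti-TCF7L2 libraries, while the lenti-shTCF7L2 libraries held 73.1% to 75.8% of the lenti-NC mean.

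Adra1b, whose product shares its Gq coupling, moved differently. It had 14.56, 17.98 and 20.67 CPM in lenti-TCF7L2, 40.06, 30.64 and 32.72 CPM in lenti-shTCF7L2 and 19.64, 27.42 and 25.94 CPM in lenti-NC. All lenti-shTCF7L2 libraries lay above all others, and the lenti-TCF7L2 and lenti-NC ranges overlapped, since lenti-TCF7L2 replicate 3 lay above lenti-NC replicate 1. The log2 differences from lenti-NC were -0.46 (SE 0.17) in lenti-TCF7L2 and 0.50 (SE 0.17) in lenti-shTCF7L2. That of lenti-TCF7L2 was -0.60 without its replicate 3 and -0.42 with adjustment for gene length. Replicates 1 and 2 of lenti-TCF7L2 lay below every lenti-NC library. The direct difference of lenti-TCF7L2 from lenti-shTCF7L2 was -0.96 (SE 0.17).

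Adra1d had 15.19, 14.04 and 13.15 CPM in lenti-TCF7L2, 22.17, 20.34 and 24.49 CPM in lenti-shTCF7L2 and 22.00, 22.97 and 22.93 CPM in lenti-NC. It is the α1 subtype best known from the rat aorta. Every lenti-TCF7L2 library was below the other 6, at 58.1% to 67.1% of the lenti-NC mean, and the other groups overlapped. Its log2 difference in lenti-TCF7L2 against lenti-NC was -0.68 (SE 0.10) and in lenti-shTCF7L2 -0.02 (SE 0.10).

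The make-up of the α1 transcripts was not the same in the groups. As a share of summed α1 FPKM, Adra1a made up 22.2%, 31.3% and 4.48% in lenti-TCF7L2, 25.3%, 28.6% and 27.0% in lenti-shTCF7L2 and 40.6%, 35.9% and 36.7% in lenti-NC. Adra1b made up 41.1%, 41.2% and 61.9% in lenti-TCF7L2, 50.7%, 45.5% and 44.5% in lenti-shTCF7L2 and 30.4%, 37.3% and 36.0% in lenti-NC. In both vector groups the Adra1a share was below, and the Adra1b share above, that of every lenti-NC library. The sum itself was 13.4 to 17.6 FPKM in lenti-TCF7L2, 26.9 to 31.3 FPKM in lenti-shTCF7L2 and 25.1 to 28.5 FPKM in lenti-NC.

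The β1 receptor Adrb1, the main target of noradrenaline in heart muscle, was lower with lenti-TCF7L2. It had 19.47, 27.26 and 15.24 CPM in lenti-TCF7L2, 40.52, 35.40 and 36.57 CPM in lenti-shTCF7L2 and 33.37, 34.63 and 36.50 CPM in lenti-NC. The lenti-TCF7L2 libraries lay below all others, at 43.7% to 78.3% of the lenti-NC mean, and the other groups overlapped. The log2 difference in lenti-TCF7L2 against lenti-NC was -0.75 (SE 0.18), -0.59 without replicate 3 and -0.84 with the length adjustment. In lenti-shTCF7L2 it was 0.11 (SE 0.18).

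Chrm2 carries the vagal signal to the heart muscle cell. It had 23.25, 37.23 and 8.31 CPM in lenti-TCF7L2, 67.65, 65.78 and 70.88 CPM in lenti-shTCF7L2 and 69.49, 73.57 and 71.06 CPM in lenti-NC. All lenti-TCF7L2 libraries were lower than all others, at 11.6% to 52.2% of the lenti-NC mean, and lenti-shTCF7L2 and lenti-NC overlapped. The log2 difference in lenti-TCF7L2 against lenti-NC was -1.64 (SE 0.40), -1.26 without replicate 3 and -1.65 with the length adjustment, and in lenti-shTCF7L2 it was -0.07 (SE 0.38). The hairpin SE includes the spread of lenti-TCF7L2, whose SD was 63.1% of its mean, against 3.79% in lenti-shTCF7L2 and 2.88% in lenti-NC. The FPKM of Adrb1 over that of Chrm2 was 1.50, 1.31 and 3.29 in lenti-TCF7L2, 1.07, 0.965 and 0.925 in lenti-shTCF7L2 and 0.861, 0.844 and 0.921 in lenti-NC, so the lenti-TCF7L2 libraries lay above the rest. Adrb1 has 1401 bases and Chrm2 2483, and shorter genes lay higher in lenti-TCF7L2 replicate 3, which gave the 3.29. The ratios were not adjusted for this.

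**Figure D2:**
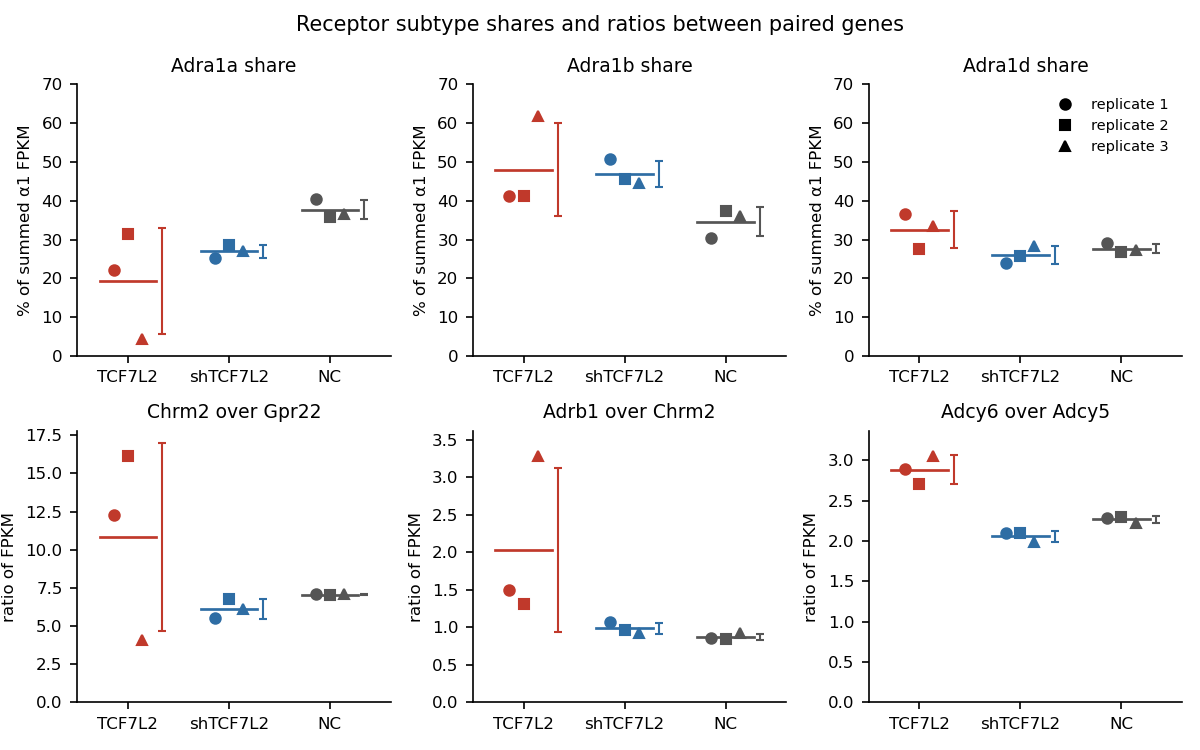
Upper row, each α1 subtype's share of the summed α1 FPKM in percent; lower row, FPKM ratios of Chrm2 to Gpr22, Adrb1 to Chrm2 and Adcy6 to Adcy5, by group from left to right lenti-TCF7L2, lenti-shTCF7L2 and lenti-NC, with lines at the mean and bars for the SD of 3 libraries. The Adra1a share lay at 35.9% to 40.6% in lenti-NC, above every library of the other groups, and the Adrb1 to Chrm2 ratio was 1.31 to 3.29 in lenti-TCF7L2 against 0.844 to 0.921 in lenti-NC. Shares and ratios were not adjusted for the shift with gene length in lenti-TCF7L2 replicate 3.

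The orphan receptor Gpr22 had the largest difference of the set. It had 3.47, 4.26 and 3.76 CPM in lenti-TCF7L2, 22.64, 17.86 and 21.37 CPM in lenti-shTCF7L2 and 18.03, 19.27 and 18.45 CPM in lenti-NC. The lenti-TCF7L2 libraries, with 55 to 67 counts against 268 to 286 counts in lenti-NC, were close together and far below the rest, at 18.7% to 22.9% of the lenti-NC mean. The log2 difference in lenti-TCF7L2 against lenti-NC was -2.28 (SE 0.13), the same to 2 decimals without replicate 3, -2.06 with the length adjustment and -1.43 on the log2(FPKM + 1) scale, where the pseudocount shrinks the differences of low genes. In lenti-shTCF7L2 it was 0.15 (SE 0.11), with overlapping groups. The FPKM of Chrm2 over that of Gpr22 was 12.3, 16.2 and 4.06 in lenti-TCF7L2, 5.50, 6.77 and 6.10 in lenti-shTCF7L2 and 7.09, 7.02 and 7.09 in lenti-NC. The lenti-TCF7L2 libraries lay on both sides of the rest in this ratio, with replicate 3 the lowest of all. In the RefSeq annotation Gpr22 lies within Cog5, which was not among the genes tested, and the strand used in counting is not given in the sources used here. Adra1b, Adcy5 and Chrm2 overlap annotated non-coding RNAs that were not tested either.

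Adcyap1r1 was the single gene of the set that was higher with lenti-TCF7L2. It had 16.40, 19.31 and 18.61 CPM in lenti-TCF7L2, 6.99, 10.30 and 6.83 CPM in lenti-shTCF7L2 and 9.71, 9.97 and 9.54 CPM in lenti-NC. The lenti-TCF7L2 libraries lay above all others at 168% to 198% of the lenti-NC mean, and the other groups overlapped. The log2 difference in lenti-TCF7L2 against lenti-NC was 0.89 (SE 0.16), 0.86 without replicate 3 and 1.27 with the length adjustment. In lenti-shTCF7L2 it was -0.28 (SE 0.16). In the same lenti-TCF7L2 libraries 9 of 10 endothelial, 4 of 7 macrophage and 4 of 8 fibroblast markers rose. So did 2 of 8 smooth muscle and pericyte, 2 of 5 epicardial and 1 of 5 neural and Schwann markers, while 1 fibroblast and 1 epicardial marker fell. The part of any of these cell types in the Adcyap1r1 difference was not tested.

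Of the cyclases, Adcy5 had 62.69, 74.87 and 36.99 CPM in lenti-TCF7L2, 100.62, 95.50 and 98.47 CPM in lenti-shTCF7L2 and 98.87, 103.78 and 103.57 CPM in lenti-NC. The lenti-TCF7L2 libraries were below the rest, and the other groups overlapped. The log2 difference in lenti-TCF7L2 against lenti-NC was -0.81 (SE 0.21), -0.59 without replicate 3 and -0.62 with the length adjustment, and in lenti-shTCF7L2 it was -0.06 (SE 0.20).

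Adcy6, the more abundant cyclase, differed less. It had 220.2, 246.5 and 137.5 CPM in lenti-TCF7L2, 256.3, 244.2 and 237.4 CPM in lenti-shTCF7L2 and 275.1, 289.1 and 279.9 CPM in lenti-NC. Both vectors gave levels below every lenti-NC library and overlapped with each other. The log2 difference in lenti-TCF7L2 against lenti-NC was -0.48 (SE 0.18), but only -0.29 without replicate 3 and -0.20 with the length adjustment, and in lenti-shTCF7L2 it was -0.19 (SE 0.18). The hairpin SE again includes the spread of lenti-TCF7L2, whose SD was 28.3% of its mean, against 3.9% in lenti-shTCF7L2 and 2.53% in lenti-NC. Adcy6 overlaps the tubulin gene Tuba1c in the RefSeq annotation, and Tuba1c rose by 0.39 in lenti-TCF7L2 against lenti-NC (adjusted p = 0.0101). The FPKM of Adcy6 over that of Adcy5 was 2.89, 2.71 and 3.06 in lenti-TCF7L2, 2.09, 2.10 and 1.98 in lenti-shTCF7L2 and 2.29, 2.29 and 2.22 in lenti-NC, with no overlap between any of the groups.

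The order of levels per length in lenti-NC put Adcy6 first at 46.2 ± 1.1 FPKM, followed by Chrm2 at 28.1 ± 0.78, Adrb1 at 24.6 ± 1.1, Adcy5 at 20.4 ± 0.53, Adra1a at 10.2 ± 0.026, Adra1b at 9.45 ± 1.6, Adra1d at 7.50 ± 0.18, Gpr22 at 3.97 ± 0.13 and Adcyap1r1 at 1.51 ± 0.035 FPKM (SD, n = 3 each). The ranges of Adra1a and Adra1b overlapped, and the lowest Adra1b library at 7.64 FPKM lay just above the highest Adra1d library at 7.61 FPKM. The other neighbours were farther apart than their ranges. In lenti-shTCF7L2 the order was Adcy6 at 41.3 ± 1.6, Chrm2 at 27.4 ± 0.92, Adrb1 at 27.0 ± 1.9, Adcy5 at 20.1 ± 0.44, Adra1b at 13.7 ± 1.9, Adra1a at 7.82 ± 0.11, Adra1d at 7.56 ± 0.67, Gpr22 at 4.50 ± 0.52 and Adcyap1r1 at 1.29 ± 0.33 FPKM, with overlap between Chrm2 and Adrb1 and between Adra1a and Adra1d. In lenti-TCF7L2 the order changed, with Adcy6 at 34.3 ± 9.8, Adrb1 at 15.1 ± 4.5, Adcy5 at 12.1 ± 4.0, Chrm2 at 9.34 ± 5.9, Adra1b at 7.12 ± 1.2, Adra1d at 4.85 ± 0.36, Adra1a at 3.09 ± 2.5, Adcyap1r1 at 2.91 ± 0.24 and Gpr22 at 0.847 ± 0.086 FPKM. Of the neighbours in that order, Adcy6 and Adrb1, Adra1b and Adra1d, and Adcyap1r1 and Gpr22 did not overlap, and the others did. Adcyap1r1, the lowest in lenti-NC, lay above Gpr22 in every lenti-TCF7L2 library.

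Set beside the cardiomyocyte markers, the members took different positions. The marker median lay at -1.02, -1.05 and -0.84 in replicates 1, 2 and 3 of lenti-TCF7L2, in log2 units from the lenti-NC mean. The 13 markers were themselves spread, with log2 differences against lenti-NC from -1.62 for Ryr2 to -0.32 for Nkx2-5. A place above or below their median alone therefore does not set a member apart from the markers. Gpr22 lay at -1.36, -1.04 and -1.42 relative to this median and was the only member below it in all of these libraries. Adra1a lay at -0.70, 0.12 and -3.11 relative to the median, and Chrm2 at -0.59, 0.11 and -2.24, so both were slightly above it in replicate 2 and far below it in replicate 3. Adra1b, Adra1d and Adcyap1r1 lay above it in all 3 libraries. Adrb1, Adcy5 and Adcy6 lay above it in replicates 1 and 2 and below it in replicate 3. The part of a change in the number of cardiomyocytes in the members' differences was not tested.

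**Figure D3:**
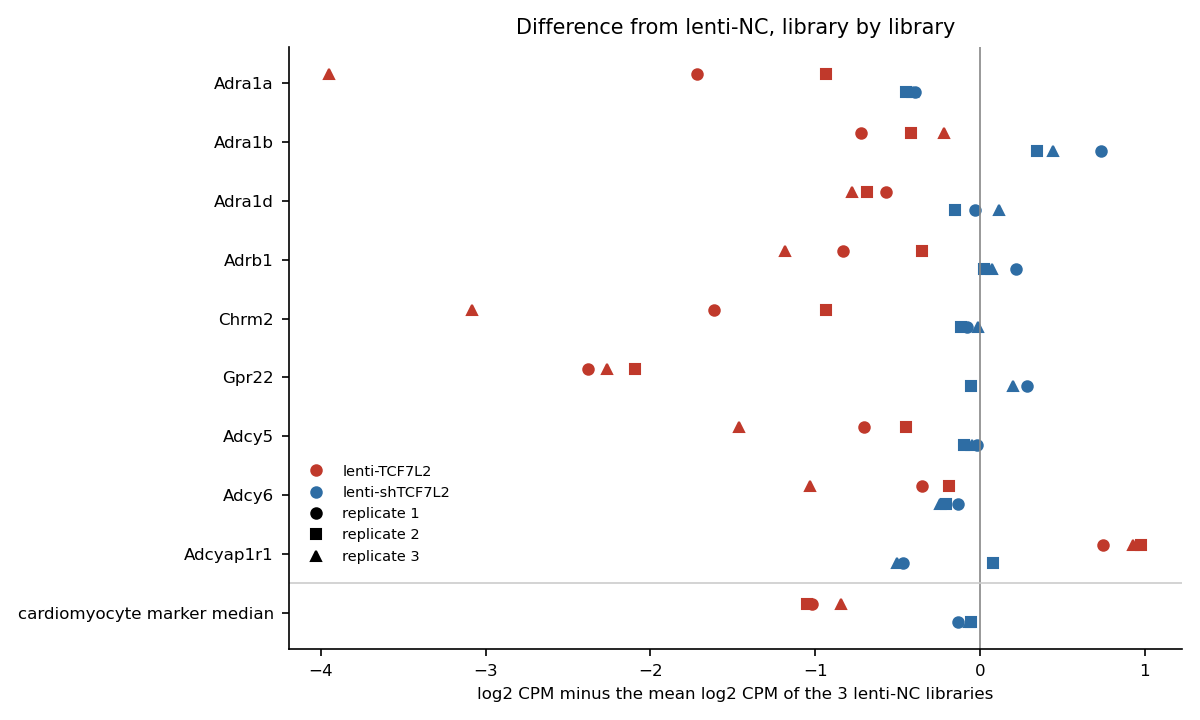
Each lenti-TCF7L2 and lenti-shTCF7L2 library's log2 CPM minus the lenti-NC mean (horizontal axis) for the 9 genes and, in the lowest row, for the median of 13 cardiomyocyte markers. The marker median lay between -1.05 and -0.84 in lenti-TCF7L2, where Gpr22 lay between -2.38 and -2.09, Adra1a between -3.95 and -0.93 and Adcyap1r1 between 0.74 and 0.98.

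With the hairpin against TCF7L2, 0 members had an adjusted p under 0.05, where 3.64% of all tested genes did, 2.32% lower and 1.32% higher. DESeq2 also called 0 members, and at an unadjusted p under 0.05 the edgeR test had 0 members lower and 1 higher, and 1887 of all 11761 genes. Groups did not overlap for Adra1a and Adcy6, which were lower than in lenti-NC, and for Adra1b, which was higher, where 21% of all genes had non-overlapping lower and 19.9% non-overlapping higher levels. The members' median log2 difference was -0.06, against 0.01 over all genes tested. Without lenti-TCF7L2 replicate 3, which enters the estimate of spread, 2056 genes were called between lenti-shTCF7L2 and lenti-NC, with 2 members among the lower and 1 among the higher ones. The members were picked with their levels in these groups known, so nothing is read from their counts in this contrast.

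Set directly against lenti-shTCF7L2, lenti-TCF7L2 had 7 members lower with no overlap and 1 higher, where 23.2% and 24.1% of all genes were, 47.2% in either direction. At an adjusted p under 0.05, 6 members lay lower and 1 higher, where 14.7% and 18.4% of all genes did, 33.1% in either direction. The members were picked with these groups in view as well, so nothing is read from these counts. The log2 difference was -2.43 (SE 0.13) for Gpr22, -1.57 (SE 0.40) for Chrm2 and 1.17 (SE 0.16) for Adcyap1r1. For Adra1a it was -1.37 (SE 0.50), -0.87 without lenti-TCF7L2 replicate 3 and -2.09 without replicate 2. Adcy6 overlapped, at -0.29 (SE 0.18), -0.077 without lenti-TCF7L2 replicate 3, -0.47 without replicate 2 and -0.043 with the length adjustment. This contrast shares the lenti-TCF7L2 libraries with the contrast against lenti-NC.

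The rest of the signalling chain was followed through 12 lists of 199 other tested genes. In lenti-TCF7L2 against lenti-NC, 44 rose and 41 fell, which is 42.7% of them against 31.8% of all tested genes. Of all tested genes 18% were called higher and 13.8% lower, the shares to set beside each list's counts below. The lists were chosen with earlier results of these data known, so nothing is read from the difference in shares. The lists' median log2 difference was 0.03, that of all genes 0.03. Leaving out 1 library gave 23 to 59 higher and 34 to 60 lower genes, while the number called among all genes ran from 2430 to 5503. Only 23 rose without lenti-NC replicate 1 or 3, and 27 without lenti-NC replicate 2 or lenti-TCF7L2 replicate 1. The cell type markers moved in the same libraries, and their part in these counts was not tested.

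**Figure D4:**
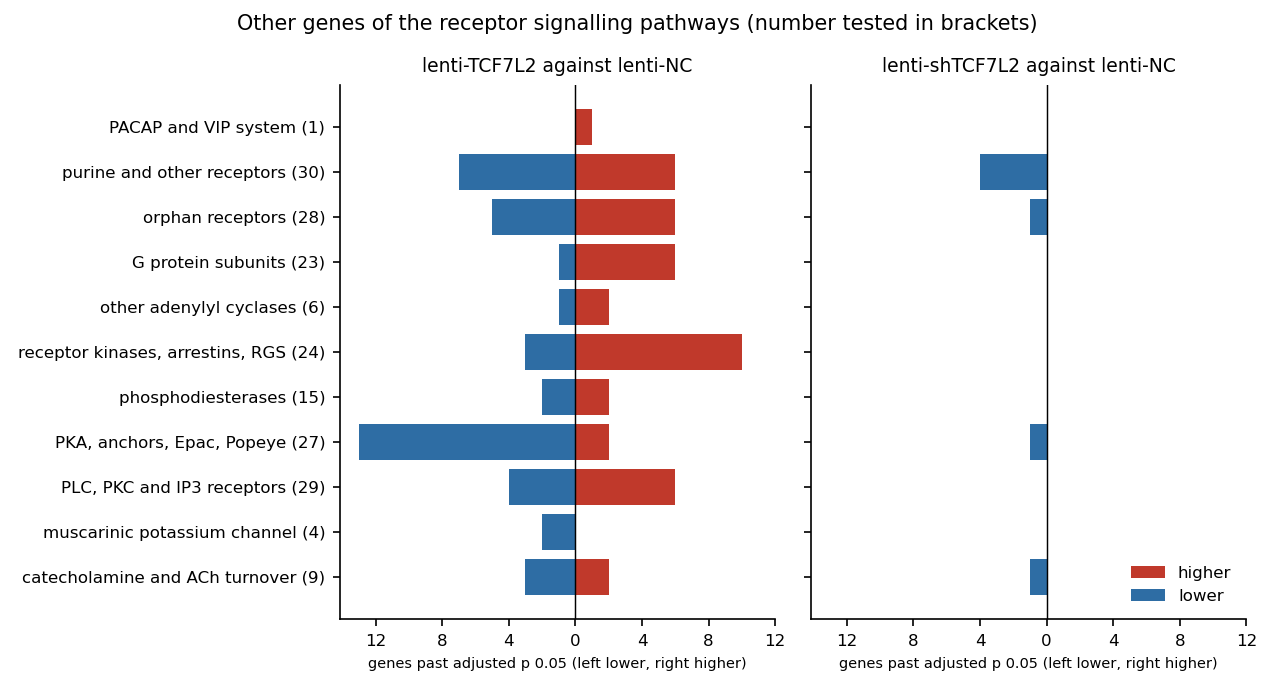
Number of tested genes in 11 of the 12 pathway lists that were past an adjusted p of 0.05 (horizontal axis, lower to the left and higher to the right of 0), for lenti-TCF7L2 against lenti-NC on the left and lenti-shTCF7L2 against lenti-NC on the right; numbers tested are in brackets. Genes of protein kinase A, its anchors and related cyclic AMP binders had 13 lower and 2 higher of 27 with lenti-TCF7L2, and receptor kinases, arrestins and RGS proteins had 10 higher and 3 lower of 24. Of all tested genes, 13.8% were lower and 18% higher with lenti-TCF7L2.

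The list with the most genes called lower lay downstream of the cyclases. Of 27 tested genes for protein kinase A, its anchoring proteins, Epac and the Popeye cyclic AMP binders, 13 fell and 2 rose in lenti-TCF7L2, with a median of -0.56, and 1 rose without lenti-TCF7L2 replicate 1 or any 1 of the lenti-NC libraries. Popdc2, a Popeye protein of muscle membranes, fell to 207 CPM in lenti-TCF7L2, against 451 CPM in lenti-NC, a log2 difference of -1.12 (SE 0.06, adjusted p = 2.37e-05). Its relative Bves fell by 0.63 (adjusted p = 1.74e-04). The regulatory subunits of protein kinase A Prkar2b and Prkar1a fell by 0.73 and 0.54 (adjusted p = 2.65e-04 and 4.09e-04). Pln, phospholamban, the calcium pump regulator that protein kinase A phosphorylates, fell by 0.89 (adjusted p = 0.00108). Its hairpin difference was -0.47 (adjusted p = 0.0861, and 0.0290 or 1.22e-04 without lenti-TCF7L2 replicate 2 or 3). In lenti-TCF7L2 against lenti-NC the cardiomyocyte markers' median was -0.98.

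Among receptor kinases, arrestins and RGS proteins, 10 of 24 rose and 3 fell, with a median of 0.28. Without lenti-TCF7L2 replicate 1 or lenti-NC replicate 3 only 5 rose, and without lenti-NC replicate 1 or 2, 6 did, while without lenti-NC replicate 2 or 3 only 1 fell. Rgs2, which shortens Gq signals, rose to 73.6 CPM in lenti-TCF7L2, against 33.0 CPM in lenti-NC, a log2 difference of 1.16 (SE 0.12, adjusted p = 2.06e-04). The receptor kinase Grk6 rose by 0.57 and the G protein modulator Gpsm3 by 0.97 (adjusted p = 5.71e-04 and 0.00161). Rgs6, an RGS protein known to limit M2 signalling in mouse heart, fell by 1.23 on the log2 scale (adjusted p = 0.00103), at 4.30 CPM in lenti-TCF7L2 and 10.1 CPM in lenti-NC.

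Both main subunits of the potassium channel that M2 receptors open were lower as well. Kcnj5 had 16.1, 19.7 and 14.8 CPM in lenti-TCF7L2, 33.8, 35.0 and 38.5 CPM in lenti-shTCF7L2 and 26.7, 27.3 and 26.2 CPM in lenti-NC. It fell by 0.66 in lenti-TCF7L2 against lenti-NC (SE 0.12, adjusted p = 0.00299), while its hairpin difference was 0.42 (adjusted p = 0.0913, and 0.0221 or 0.0046 without lenti-TCF7L2 replicate 2 or 3). Its partner Kcnj3 fell by 1.29 (SE 0.38, adjusted p = 0.0310), a call lost without lenti-TCF7L2 replicate 1, lenti-shTCF7L2 replicate 3 or any 1 of the lenti-NC libraries. These 2 were the ones called among the 4 genes listed for this channel. Ache, which breaks down acetylcholine, fell by 0.91 (adjusted p = 1.45e-04), and the related esterase Bche by 1.76 (adjusted p = 0.00541).

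Of 23 other G protein subunit genes 6 rose and 1 fell in lenti-TCF7L2, with 2 rising without lenti-NC replicate 1 and 3 without lenti-NC replicate 2 or 3, and with 3 falling without lenti-TCF7L2 replicate 2 and 2 without replicate 3. The Gi subunit Gnai2 rose by 0.45 (adjusted p = 0.00474), and Gnb2 rose by 0.39 (adjusted p = 0.0125, and 0.0511 without lenti-NC replicate 1). The γ subunit Gng8 rose by 1.57 (adjusted p = 0.0022), while Gnao1, the Go subunit, fell by 1.53 (adjusted p = 0.00726). Gnas, which encodes the Gs subunit, had a difference of -0.06 (SE 0.09, adjusted p = 0.633), and of -0.17 without lenti-TCF7L2 replicate 3 (adjusted p = 0.0246). Of 6 other adenylyl cyclases tested, Adcy4 rose by 0.86 (adjusted p = 4.76e-04) and Adcy3 by 0.50 (adjusted p = 0.0170, and 0.0712 without lenti-NC replicate 3). Adcy1 had 3, 4 and 0 counts in lenti-TCF7L2, 30, 26 and 25 in lenti-shTCF7L2 and 25, 35 and 41 in lenti-NC, and fell in lenti-TCF7L2 against lenti-NC (adjusted p = 5.87e-04).

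Other receptors moved both ways. Of 30 purine, prostaglandin, lipid and related receptors, 6 rose and 7 fell in lenti-TCF7L2, with 11 rising without lenti-TCF7L2 replicate 3. The Gs-coupled adenosine receptors Adora2b and Adora2a rose by 1.42 and 1.45 (adjusted p = 1.50e-04 and 4.72e-04). The sphingosine 1-phosphate receptor S1pr1 fell by 0.83 (adjusted p = 8.62e-05) and the prostaglandin F receptor Ptgfr by 1.73 (adjusted p = 5.30e-04). S1pr1 and Ptgfr fell with the hairpin too, by 0.57 (adjusted p = 0.00332) and 1.26 (adjusted p = 0.0135). The Ptgfr hairpin call was lost without any 1 of the lenti-shTCF7L2 or lenti-NC libraries. S1pr2 rose by 0.26 with lenti-TCF7L2 (adjusted p = 0.0482), a call lost in all leave-one-out fits but the one without lenti-TCF7L2 replicate 3, and fell by 0.56 with the hairpin (adjusted p = 0.0113), a call lost without lenti-shTCF7L2 replicate 1 or 3 or any 1 of the lenti-NC libraries.

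The orphan receptor list also held receptors with known ligands, such as Lgr4. Of its 28 tested genes besides Gpr22, 6 rose and 5 fell in lenti-TCF7L2, where 18% and 13.8% of all tested genes did. The number rising was 1 to 3 without lenti-TCF7L2 replicate 1, lenti-shTCF7L2 replicate 2 or any 1 of the lenti-NC libraries, and 8 fell without lenti-TCF7L2 replicate 3. Gpr155 and Gpr146 fell by 1.26 and 1.35 (adjusted p = 1.33e-04 and 6.49e-04), and Lgr4, the R-spondin receptor of the Wnt pathway, fell by 0.96 (adjusted p = 0.00308). Gpr137 fell with the hairpin by 0.50 (adjusted p = 0.00711, and 0.0505 without lenti-shTCF7L2 replicate 2). Of the other PACAP and VIP genes, only Vipr2, a receptor for VIP and PACAP, was tested. It rose by 0.60 in lenti-TCF7L2 (adjusted p = 0.0425), a call lost in 7 of the 9 leave-one-out fits, all but those without lenti-TCF7L2 replicate 3 or lenti-shTCF7L2 replicate 3.

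Of 15 phosphodiesterases, the enzymes that break down cyclic AMP and cyclic GMP, 2 rose and 2 fell in lenti-TCF7L2. Of all tested genes 18% rose and 13.8% fell there. Pde2a and Pde9a rose by 0.71 and 1.13 (adjusted p = 3.48e-04 and 0.00435). Pde7a fell by 0.42 (adjusted p = 0.0128, and 0.0559 without lenti-NC replicate 1) and Pde1a by 0.63 (adjusted p = 0.0358), the Pde1a call being lost without lenti-shTCF7L2 replicate 1 or 3 or any 1 of the lenti-NC libraries. The number falling was 6 without lenti-TCF7L2 replicate 2, 5 without lenti-TCF7L2 replicate 3 and 0 without lenti-NC replicate 1. Downstream of the α1 receptors, 6 of 29 genes for phospholipase C, protein kinase C and inositol trisphosphate receptors rose and 4 fell. These counts too stand beside the 18% and 13.8% of all tested genes. The kinases Prkd2 and Prkch rose by 0.84 and 1.94 (adjusted p = 4.72e-04 and 5.26e-04), the phospholipase Plcd1 rose by 0.54 (adjusted p = 5.71e-04), and Prkcd fell by 0.36 (adjusted p = 0.00261). Without lenti-TCF7L2 replicate 3, 11 rose and 7 fell, and without replicate 2 of that group 9 fell.

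Among 9 genes that make, take up or break down catecholamines and acetylcholine, 2 rose and 3 fell in lenti-TCF7L2, with 5 falling without lenti-TCF7L2 replicate 3 and 1 rising without lenti-TCF7L2 replicate 1 or any 1 of the lenti-NC libraries. Ddc, which makes dopamine, fell by 0.50 (adjusted p = 0.00377), a call lost with the length adjustment, where the difference was -0.20 (adjusted p = 0.431). Maoa, which oxidises noradrenaline, fell with the hairpin by 0.60 (adjusted p = 0.00449) and had 0.15 in lenti-TCF7L2 (adjusted p = 0.159).

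With the hairpin, 7 of the 199 pathway genes fell and 0 rose in edgeR's test, 3.52% of them against 3.64% of all genes tested. DESeq2 called 11 lower and 2 higher, and at an unadjusted p under 0.05 edgeR had 22 lower and 21 higher. 4 of the 7 were in the list of purine and other receptors, and Popdc2, Gpr137 and Maoa made up the rest. Popdc2 fell by 0.35 (adjusted p = 0.0120), a call lost without any 1 of the lenti-shTCF7L2 or lenti-NC libraries. Without lenti-TCF7L2 replicate 3 there were 31 falling and 16 rising pathway genes, without lenti-TCF7L2 replicate 2 there were 11 and 4, without lenti-NC replicate 1 there were 4 falling, and without any other lenti-NC or any lenti-shTCF7L2 library 3 falling.

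Among 8547 genes averaging at least 10 CPM, those whose centred log2 CPM ran closest to each member over the 9 libraries were found by the root mean square of the differences. Chrm2 was closest to Myocd at 0.12 and Slc16a12 at 0.15 log2 units, where the median over all candidates was 1.03. Adra1a was closest to Prox1 and Nebl, both at 0.13, with a median of 1.22. Gpr22 was closest to Tfrc at 0.25 and Mb at 0.26, with a median of 1.11. Adrb1 was closest to Sync and Sgms1 (0.09 and 0.10), Adcy5 to Pdzd8 and Mdm4 (0.05 and 0.06) and Adcy6 to Zfp266 and Sun1 (0.03 and 0.04). Adra1d was closest to Tmem65 and Ppp1cb, both at 0.06, Adra1b to Efnb3 at 0.18 and Rhbdl3 at 0.19, and Adcyap1r1 to Zmynd15 at 0.13 and Cdt1 at 0.14. All of these share the same 9 libraries, with their differences in depth and length make-up. Within the set, Adrb1 and Adcy5 ran closest at 0.12, and Adra1a and Adcyap1r1 farthest apart at 1.62.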

How the data were processed

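RNA selected with oligo(dT) was sequenced from 9 libraries in 3 groups of 3, per the labels' protocols. The authors deposited, for each library, expected counts and FPKM per gene with gene lengths. The submitters' processing notes name HISAT2, Bowtie2, RSEM 1.3.1, DESeq2 1.4.5 and the rn6 build, without their roles. 84.2% to 84.5% of the deposited expected counts were whole, and all were rounded for testing. The members, lists and tests were chosen with earlier results of these data known. The members were found by symbol, and 11761 of 14607 listed genes passed edgeR's filterByExpr. The 2-sided quasi-likelihood test of edgeR 4.0.16 (R 4.3.3) with TMM scaling was fitted to all 9 libraries with the group as the only term, and adjusted p-values are Benjamini-Hochberg over all 11761 genes, called under 0.05. The SE of a log2 difference is its size divided by the square root of the test's F. Alternatives were DESeq2 1.42.0, RLE or upper-quartile scaling, a stricter filter (10 counts in 6 libraries) or none, limma 3.58.1 on the authors' deposited FPKM as log2 after adding a pseudocount of 1 or 0.1, a replicate block, the 6 libraries of 2 groups, a lowess length adjustment (span 0.3), values relative to the cardiomyocyte marker median, and each library left out. The fit to both groups alone that also omits lenti-TCF7L2 replicate 3 was added later, with the data seen. No sequencing batch is given. Named genes were the members, up to 4 genes with the smallest adjusted p per list with lenti-TCF7L2 and up to 2 with the hairpin, and Kcnj3, Kcnj5, Pln, Gnas and Tcf7l2. Some genes that this rule names are not reported here. Tuba1c was named after its overlap with Adcy6 was seen. Likeness used log2 CPM with a prior count of 2. The lower limit of 3 counts covers counting error only. Promoters came from RefSeq's GRCr8 tables, matched by symbol and gene ID. The tests were run before use on simulated data with the same spread in all groups and no shift with gene length. That run does not cover the unequal spread between the groups or the library that stood apart.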

Additional observations from a re-analysis of the deposited data

How the results depend on the processing

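Replicate numbers were not taken as pairing, since the labels do not say that they are. The residuals of same-numbered libraries correlated between -0.067 and 0.151, over 0.1 in 2 of 9 pairs. With 3 libraries per group, and 1 that stood apart, these values cannot exclude a shared origin. The replicate block, fitted once, called 244 genes in lenti-shTCF7L2 against lenti-NC (428 without it). Leaving out each library in turn gave 2430 to 5503 genes called in lenti-TCF7L2 against lenti-NC (3741 with all), the lowest without lenti-NC replicate 1 and the highest without lenti-TCF7L2 replicate 2. It gave 88 to 2056 in lenti-shTCF7L2 against lenti-NC, the lowest without lenti-shTCF7L2 replicate 2 and the highest without lenti-TCF7L2 replicate 3, and 2649 to 5405 in lenti-TCF7L2 against lenti-shTCF7L2 (3890 with all). The pathway genes called then ran from 23 to 59 higher in lenti-TCF7L2 against lenti-NC, from 3 to 31 lower and 0 to 16 higher in lenti-shTCF7L2 against lenti-NC, and from 27 to 58 lower in lenti-TCF7L2 against lenti-shTCF7L2 (35 with all). Members called in lenti-shTCF7L2 against lenti-NC ran from 0 to 2 lower and from 0 to 1 higher, and nothing is read from member counts here either. With only the 6 libraries of both groups, 2321 genes and 23 pathway genes higher were called in lenti-TCF7L2 against lenti-NC, and 3294 genes, 38 pathway genes lower and 25 higher, and 2 members lower and 1 higher in lenti-shTCF7L2 against lenti-NC. In that contrast DESeq2 called 651 genes, with 11 pathway genes lower and 2 higher, limma called 3 pathway genes higher with either pseudocount, and the length adjustment gave 12 lower and 3 higher. The length adjustment without lenti-TCF7L2 replicate 3 gave 2600 genes, 32 pathway genes lower and 24 higher, and 2 members lower and 1 higher there, and 6021 genes with 60 pathway genes lower in lenti-TCF7L2 against lenti-shTCF7L2. Relative to the cardiomyocyte marker median, the members' median was 0.23 in lenti-TCF7L2 against lenti-NC, 0.017 in lenti-shTCF7L2 against lenti-NC and 0.055 in lenti-TCF7L2 against lenti-shTCF7L2. On that scale, which subtracts the markers' median fall, the lenti-TCF7L2 differences of Adra1d, Adrb1 and Adcy5 were positive, at 0.30, 0.23 and 0.17 against lenti-NC and at 0.25, 0.055 and 0.16 against lenti-shTCF7L2, and those of Adra1b and Adcy6 against lenti-NC were 0.53 and 0.50. Single markers differed from lenti-NC by -1.62 (Ryr2) to -0.32 (Nkx2-5), so these signs hold for the median only. Outside that scale, no member changed the sign of a difference whose groups did not overlap under the alternatives run. The causes of the other changes were not tested. Adra1a in lenti-TCF7L2 replicate 3 and Adcy1 in lenti-TCF7L2 were among the values that rested on few counts.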
